A study of Mus musculus with 18 samples.

Results

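The Notch receptor, ligand and target genes of the embryonic mouse ventricle were followed across 5 genotypes of the Iroquois homeobox genes Irx3 and Irx4. The set comprised 10 genes of the 28563 to which transcripts were assigned: the receptors Notch1 and Notch2, the ligands Dll1, Dll4, Jag1 and Jag2, and the target genes Hey1, Hey2, Heyl and Hes1. They were taken by name as genes of 1 pathway, and all 10 were among the 16607 genes tested. PolyA RNA of ventricles at E14.5 (E stands for embryonic day) had been sequenced in 18 libraries. The genotypes were the double knockout of Irx3 and Irx4 (DKO, 6 libraries), Irx3KO (3), Irx4KO (3), the double heterozygote Irx3+/-;Irx4+/- (3) and wild type (WT, 3). The labels do not describe the alleles or the state of the other Irx gene in a single knockout. Nor do they say whether each library came from its own embryo, so the p-values measure the spread between libraries, which may be technical.

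Notch signalling passes between neighbouring cells. A ligand of the Delta-like or Jagged type on one cell binds a Notch receptor on the next, the receptor is cut, and its intracellular domain enters the nucleus and joins the DNA-binding protein RBPJ to switch on Hes and Hey genes, which encode transcriptional repressors. In the mouse heart, Notch1 in the endocardium guides the growth of the trabeculae, the muscular ridges of the inner wall, while Jag1 and Jag2 are used in the later compaction of that wall. Hey2 is also a marker of the compact ventricular muscle and of arterial endothelium.

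Promoter sequences from RefSeq (GRCm38.p6) were at hand for 7 of the 10 genes: Notch1, Notch2, Dll1, Dll4, Jag1, Jag2 and Hey2. The 250 bases before the annotated start are shown for Jag2, the only one of the 10 genes that passed the test between genotypes, for Jag1, the other Jagged ligand, and for Hey2, the most abundant gene of the set. All 3 genes lie on the minus strand, and each sequence reads 5′ to 3′ along the gene, with an RBPJ site in capitals.
Jag2, chr12:112929496-112929745: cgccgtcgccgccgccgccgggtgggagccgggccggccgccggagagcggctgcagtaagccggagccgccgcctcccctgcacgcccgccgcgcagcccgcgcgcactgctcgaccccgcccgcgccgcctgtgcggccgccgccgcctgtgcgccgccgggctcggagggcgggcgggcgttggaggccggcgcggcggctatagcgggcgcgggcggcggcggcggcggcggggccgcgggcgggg
Jag1, chr2:137116521-137116770: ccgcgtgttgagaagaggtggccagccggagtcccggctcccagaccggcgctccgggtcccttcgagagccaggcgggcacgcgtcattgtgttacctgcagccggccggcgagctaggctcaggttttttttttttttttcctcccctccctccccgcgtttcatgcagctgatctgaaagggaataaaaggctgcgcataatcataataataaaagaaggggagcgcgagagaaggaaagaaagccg
Hey2, chr10:30842784-30843033: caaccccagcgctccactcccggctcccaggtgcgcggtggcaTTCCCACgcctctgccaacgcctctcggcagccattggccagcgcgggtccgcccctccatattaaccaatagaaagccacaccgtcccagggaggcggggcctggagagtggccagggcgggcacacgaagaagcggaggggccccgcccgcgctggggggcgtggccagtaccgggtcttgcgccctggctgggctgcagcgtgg
The RBPJ letters GTGGGAA were searched on both strands from 250 bases before to 50 bases after each start. Among the 7 genes they occurred only at Hey2, once on the opposite strand at position -207 (printed as TTCCCAC) and once on the gene's own strand at position -4, across the start. The same letters occurred in 6.38% of all 32851 promoter windows. The Jag2 sequence was 87.2% G or C, against 57.2% in Jag1, 71.6% in Hey2 and a median of 52.4% over all promoters.

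The libraries held 26721576 to 45946741 estimated counts, and fell into 2 sets that no label names: DKO 5, 7 and 10 with the 3 WT libraries (set 1), and DKO 2, 3 and 4 with all Irx3KO, Irx4KO and double heterozygote libraries (set 2). The correlation between a gene's transcript length and its level relative to the mean of all libraries (Spearman's rho over 11252 genes) was -0.579 to -0.353 in the 6 libraries of set 1 and 0.059 to 0.573 in the 12 of set 2. Genotypes were therefore compared within a set, and WT was not set directly against Irx3KO, Irx4KO or the double heterozygote, since such a difference would also hold that between the sets. In CPM, counts scaled to library size with TMM factors, Irx3 averaged 3.77 ± 0.58 in DKO and 24.9 ± 3.3 in WT in set 1; in set 2 it averaged 3.66 ± 0.29 in DKO, 2.83 ± 0.27 in Irx3KO, 24.9 ± 2.4 in Irx4KO and 13.1 ± 0.26 in double heterozygotes (SD, n = 3 each). Irx4 averaged 253 ± 33 CPM in DKO and 95.6 ± 26 CPM in WT of set 1 (SD, n = 3 each), so its transcript level does not check the labels, which do not say what part of the gene was removed. Y-linked genes, scaled to library size alone, summed to 0.911 CPM in WT 3, 1.1 in DKO 4 and 1.44 in double heterozygote 2. The other libraries had 98.1 to 299 CPM, among them all DKO libraries of set 1. WT, DKO of set 2 and the double heterozygotes each thus held RNA of more than 1 embryo.

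In TPM, the share of a library's transcripts that a gene takes after scaling for length, Hey2 stood above the other 9 genes in all 18 libraries. Its median was 101 TPM, with a range of 93.5 to 126, and it lay at the 92.7th percentile of the tested genes in set 1 and the 92.9th in set 2. Hes1 followed with a median of 30.0 TPM (22.4 to 36.0), and then Notch1 with 25.7 (3.19 to 39.7). The medians of the other 7 were 14.7 TPM for Hey1, 12.8 for Notch2, 11.9 for Jag1, 11.01 for Dll4, 10.4 for Heyl, 9.84 for Jag2 and 6.33 for Dll1. Apart from Hey2, each gene's range over the libraries overlapped that of its neighbour in this order. Among the 4 ligands no gene held most of the TPM: over all libraries Jag1 took 18.5 to 37.3%, Dll4 20 to 34.2%, Jag2 18 to 31.9% and Dll1 13.2 to 23.4% of their sum. Dll1-201, the longest Dll1 transcript, held 83.7 to 93.07% of the Dll1 counts, so shorter transcripts also weigh in the Dll1 share. Among the 4 targets Hey2 held 60.8 to 73.5%.

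**Figure D1:**
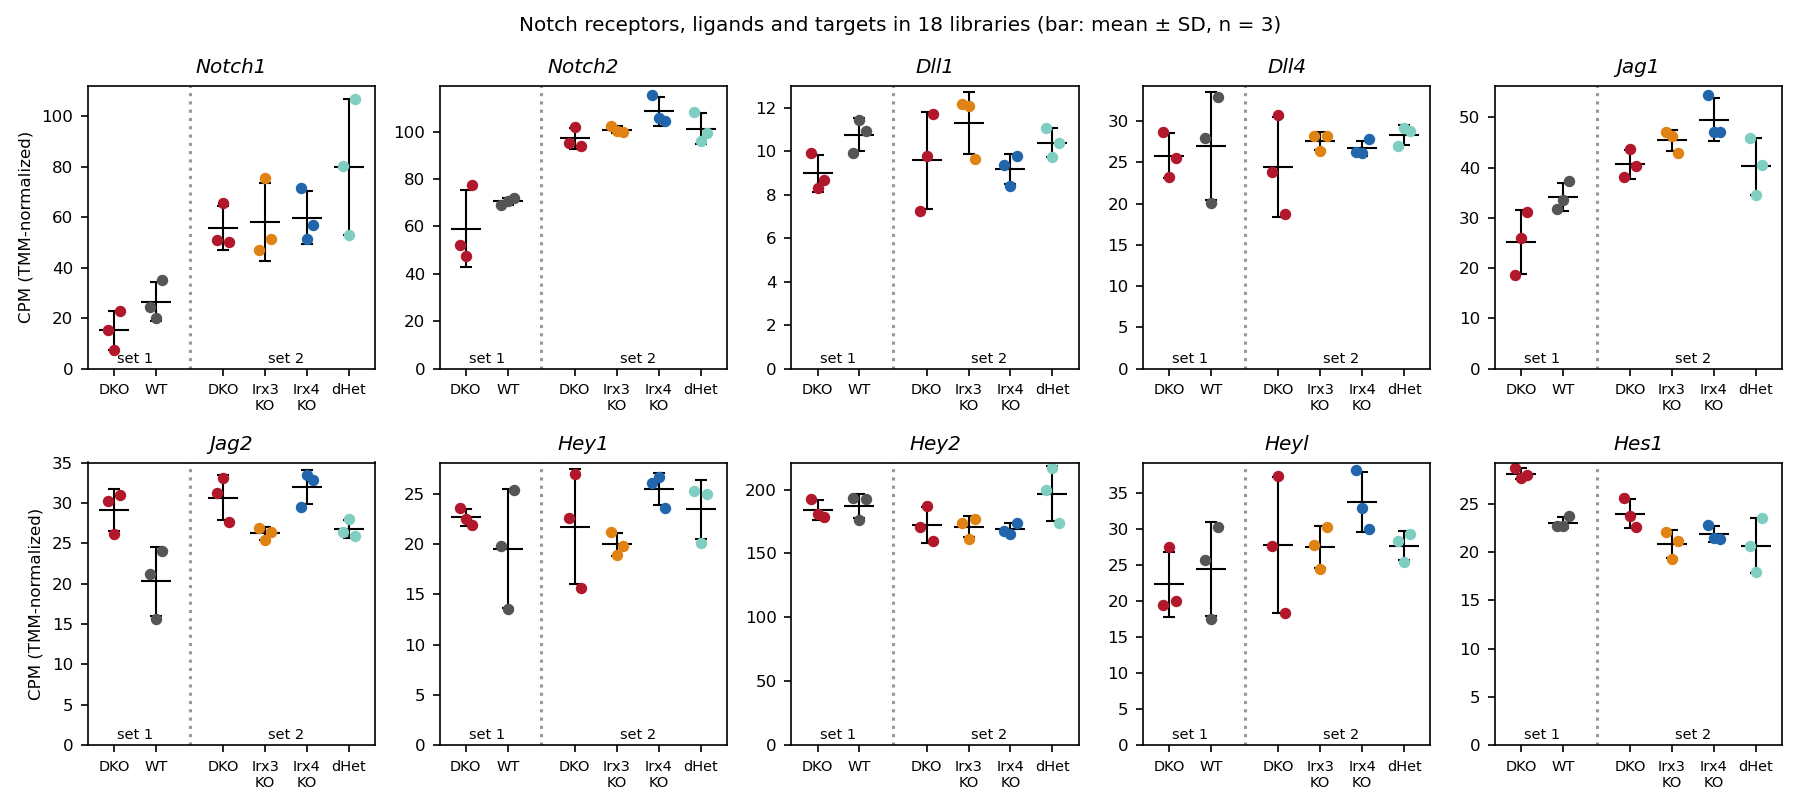
Level of each Notch gene in CPM in every library; each point is 1 library, horizontal bars with whiskers are the mean ± SD of 3 libraries, dHet is the double heterozygote, and the dotted line divides set 1 (left) from set 2. The 3 DKO libraries of set 1 lie above the 3 WT libraries for Jag2 and Hes1, and Notch1, Notch2 and Jag1 lie lower in set 1 than in the DKO libraries of set 2.

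In set 1, the libraries labelled DKO were compared with those labelled WT. Of the 10 genes, 1 rose (Jag2), 0 fell and 9 did not pass the test (adjusted p under 0.05 in edgeR's quasi-likelihood F test, adjusted over all genes). The background was 1.44% of all genes tested passing in either direction, and 0.644% rising and 0.795% falling. At an unadjusted p under 0.05 there were 3 of the 10 (Jag2, Hes1, Jag1), against 13.8% of all genes. The median log2 fold change of the 10 was -0.10, and that of all genes 0.01.

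Jag2, one of the 2 Jagged ligands, had 30.3, 26.1 and 31.0 CPM in DKO 5, 7 and 10, against 21.2, 15.6 and 24.0 CPM in WT 1, 2 and 3. Every DKO library lay above every WT library, and WT 2 was the lowest of all 18. The log2 fold change was 0.52 ± 0.12 (SE; 95% interval 0.27 to 0.77), or 1.44-fold, with an adjusted p of 0.035. It ranked number 191 by p among all genes. The call is narrow: leaving out 1 library at a time gave log2 fold changes of 0.36 (without WT 2, adjusted p = 0.090) to 0.66 (without WT 3, adjusted p = 0.015), and the adjusted p exceeded 0.05 in 7 of the 18 omissions, those of DKO 5 (0.052), DKO 10 (0.062), WT 1 (0.092), WT 2, Irx3KO 1 (0.054), Irx3KO 2 (0.051) and Irx4KO 4 (0.051). With the 6 libraries of set 1 fitted alone, the log2 fold change was 0.51 and the adjusted p 0.38, and the adjusted p was 0.057 with embryo sex as a covariate and 0.071 in limma-voom.

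Jag1, the other Jagged ligand, had 18.6, 25.9 and 31.2 CPM in DKO 5, 7 and 10 and 31.8, 33.6 and 37.3 CPM in WT 1, 2 and 3. The 2 groups did not overlap, with DKO 10 just under WT 1. The log2 fold change was -0.44 ± 0.14 (SE; 95% interval -0.74 to -0.14) and missed the threshold (adjusted p = 0.16). Without DKO 10 it was -0.62 (adjusted p = 0.023) and without DKO 5 it was -0.26 (adjusted p = 0.23). Of the 18 single omissions, 17 did not pass. With genotype as the only term, over all libraries, it was -0.06 (adjusted p = 0.97). That fit joins DKO of both sets against WT of set 1, so its value also holds the difference between the sets. The 2 Jagged genes thus lay on opposite sides of WT in the DKO libraries. Jag2 made up 28.6 to 31.9% of the summed TPM of the 4 ligands in DKO and 18 to 21% in WT, while Jag1 made up 18.5 to 25.3% in DKO and 27.2 to 33.6% in WT. In DKO of set 1 the Jag2 share was above the Jag1 share in each library, and in WT it was below it in each. This order did not recur in DKO of set 2. There the Jag1 share, 29.8 to 31.2%, was above the Jag2 share, 26.8 to 29.6%, in each library. Shares of 1 sum are tied to each other, and this ratio was not tested.

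**Figure D2:**
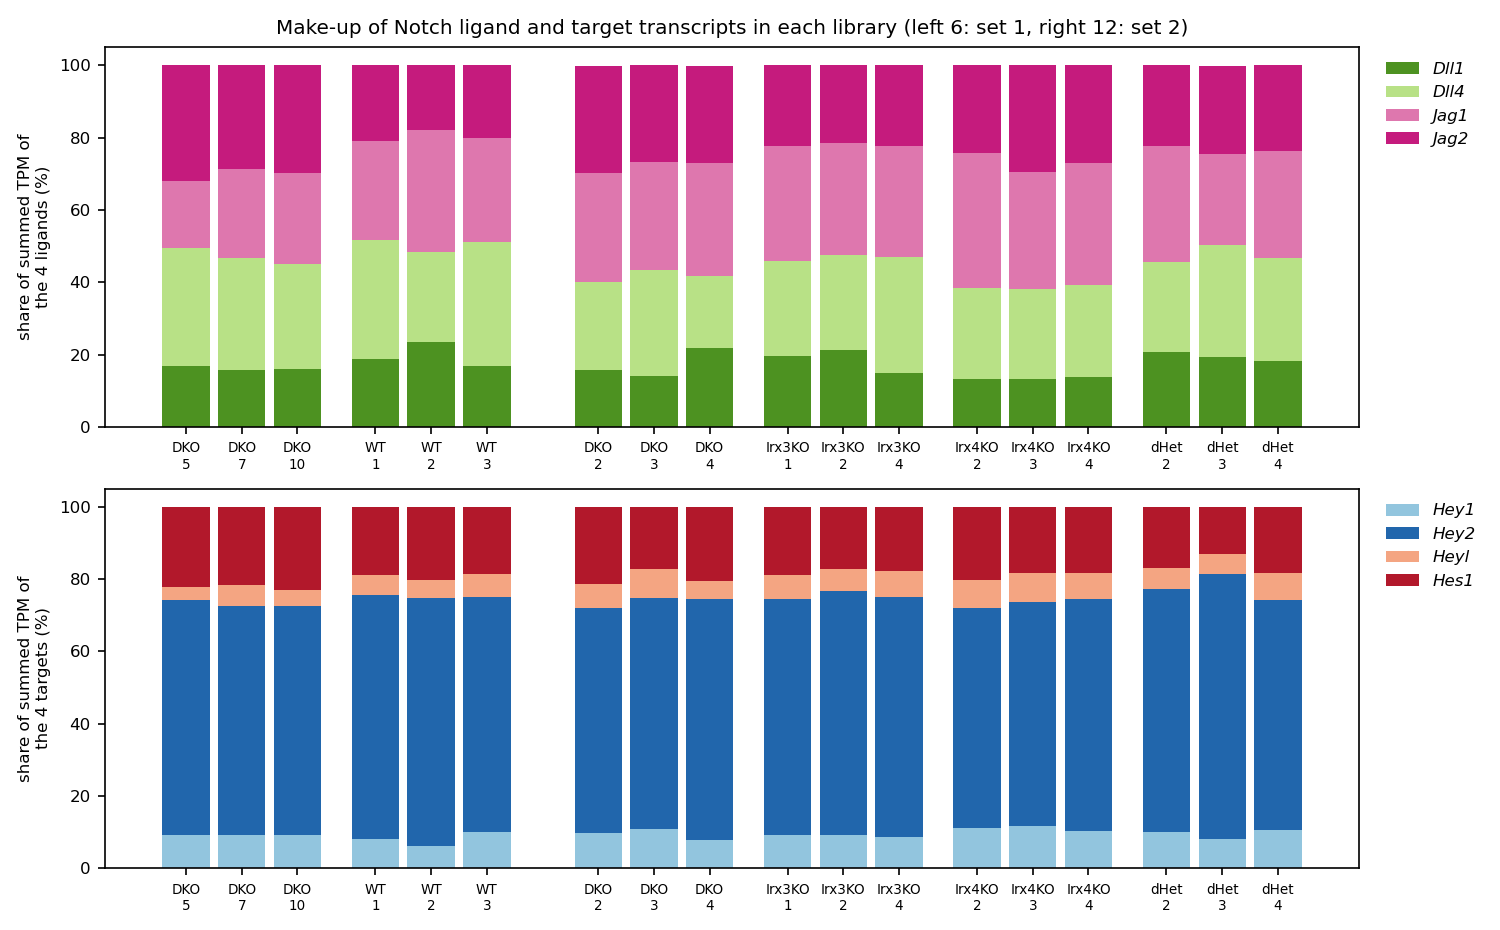
Share, in percent, of each ligand in the summed TPM of Dll1, Dll4, Jag1 and Jag2 (top), and of each target in the summed TPM of Hey1, Hey2, Heyl and Hes1 (bottom); each stacked bar is 1 library and dHet is the double heterozygote. Jag2 takes 28.6 to 31.9% of the ligand sum in DKO of set 1 and 18 to 21% in WT, and Hey2 takes most of the target sum in every library.

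The Delta-like ligands did not pass the test in set 1. Dll4, the main Delta-like ligand of arterial endothelium and endocardium, had 28.8, 23.2 and 25.5 CPM in DKO and 28.0, 20.03 and 33.0 CPM in WT, with a log2 fold change of -0.06 ± 0.16 (SE; 95% interval -0.40 to 0.28; adjusted p = 0.91). The DKO values fell inside the range of WT. Dll1, used in fetal arteries, had 9.94, 8.33 and 8.70 CPM in DKO and 9.94, 11.5 and 10.95 CPM in WT, and its log2 fold change was -0.26 ± 0.14 (SE; adjusted p = 0.45).

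Hes1, a general Notch target in many tissues, had 28.8, 27.6 and 28.0 CPM in DKO 5, 7 and 10 and 22.7, 22.8 and 23.7 CPM in WT 1, 2 and 3. The DKO libraries were close together and all above WT. The log2 fold change was 0.29 ± 0.09 (SE; 95% interval 0.10 to 0.47), or 1.22-fold, and did not pass after adjustment over all genes (adjusted p = 0.12). DESeq2, run as an alternative, gave 0.29 with an adjusted p of 0.028. Hey2 had 193, 181 and 179 CPM in DKO and 193, 176 and 192 CPM in WT, so that the 2 groups overlapped fully. Its log2 fold change of -0.03 ± 0.08 (SE; adjusted p = 0.93) had a 95% interval of -0.19 to 0.14, which sets the size of change that these libraries could have missed. Hey1, found with Hey2 in endocardium and arteries, averaged 22.7 ± 0.8 CPM in DKO and 19.6 ± 5.9 CPM in WT (SD, n = 3 each), and Heyl, a target found largely in vascular smooth muscle, 22.3 ± 4.5 CPM in DKO and 24.5 ± 6.5 CPM in WT (SD, n = 3 each). Neither passed (adjusted p = 0.68 for Hey1 and 0.86 for Heyl).

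Of the receptors, Notch1 had 15.3, 7.49 and 23.0 CPM in DKO 5, 7 and 10 and 24.3, 20.2 and 35.1 CPM in WT 1, 2 and 3. The 2 groups overlapped, and the lowest and highest libraries within DKO lay further apart than the 2 group means. The log2 fold change was -0.79 ± 0.37 (SE; adjusted p = 0.36). It ran from -1.22 without DKO 10 to -0.47 without DKO 7, neither passing (adjusted p = 0.10 and 0.59). With genotype as the only term, which joins DKO of both sets, it was 0.42 (adjusted p = 0.90). That value also holds the difference between the sets. Notch2 had 52.3, 47.5 and 77.7 CPM in DKO and 69.1, 70.7 and 72.0 CPM in WT, with a log2 fold change of -0.26 ± 0.12 (SE; adjusted p = 0.37). DKO 10 alone lay above WT. Without it the log2 fold change was -0.50 (adjusted p = 0.0019), without DKO 7 it was -0.12 (adjusted p = 0.70) and without DKO 5 it was -0.17 (adjusted p = 0.55), and 17 of the 18 single omissions did not pass. With genotype as the only term it was 0.15 (adjusted p = 0.90), with the same limit as for Notch1. The transcript-length correlation was -0.353 in DKO 10, against -0.579 in DKO 5, -0.481 in DKO 7 and -0.518 to -0.485 in WT. With the length trend of each library removed, an alternative added after the data were seen, the log2 fold changes of DKO against WT were -0.82 for Notch1 (adjusted p = 0.34), -0.20 for Notch2 (0.34) and -0.42 for Jag1 (0.088).

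In set 1, 4 of the 10 genes had groups that did not overlap, with Jag2 and Hes1 higher and Jag1 and Dll1 lower in DKO. Dll1 did so only by a difference beyond the third digit. The background was 15.0% of all genes, 7.97% of them higher and 7.04% lower.

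**Figure D3:**
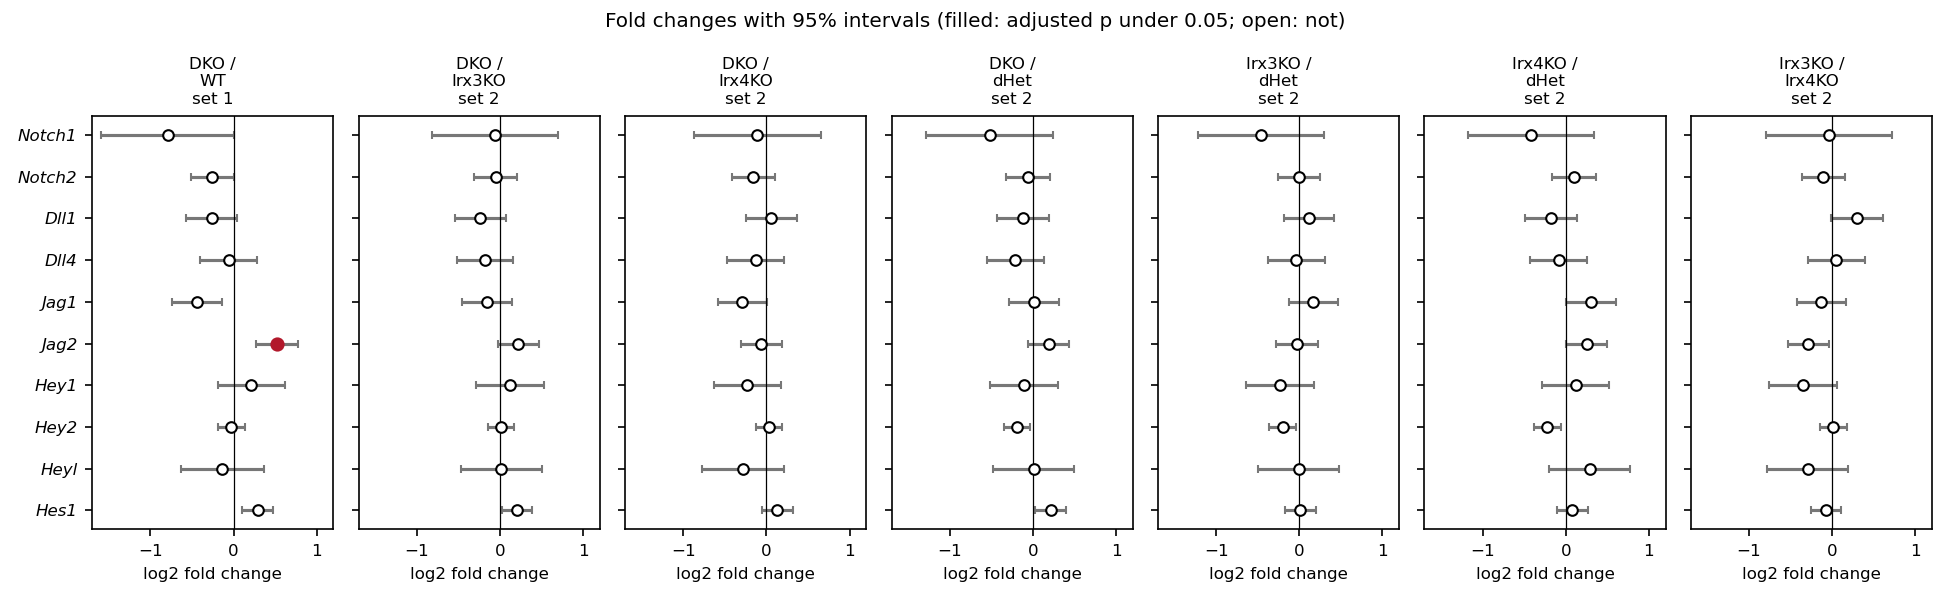
Log2 fold change of each Notch gene in the 7 comparisons within a set, with its 95% interval from the edgeR fit (dHet, double heterozygote); the filled marker is the gene that passed the test. Jag2 in DKO against WT, at 0.52, is the only filled marker.

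In set 2, none of the 10 genes passed the edgeR quasi-likelihood test in any of the 6 comparisons. Of all genes, 0.379% passed in DKO against Irx3KO, 0.0241% in DKO against Irx4KO, 0.0903% in DKO against double heterozygotes, 0.00602% in Irx3KO against double heterozygotes, 0.0120% in Irx4KO against double heterozygotes and 0.289% in Irx3KO against Irx4KO. DESeq2 also called 0 of them in these 6. At an unadjusted p under 0.05 there was 1 of 10 in DKO against Irx3KO (7.91% of all genes), 0 in DKO against Irx4KO (5.78%), 2 in DKO against double heterozygotes (9.81%), 1 in Irx3KO against double heterozygotes (4.38%), 3 in Irx4KO against double heterozygotes (5.61%) and 1 in Irx3KO against Irx4KO (8.62%). The 3 comparisons with DKO share its libraries, as those with each other genotype share theirs, so that these counts are not independent.

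Jag2 in set 2 had 31.3, 33.1 and 27.6 CPM in DKO, 26.8, 25.4 and 26.5 in Irx3KO, 29.5, 33.5 and 32.9 in Irx4KO, and 26.4, 28.0 and 25.9 in double heterozygotes. The libraries homozygous for the Irx4 knockout were the higher ones, except that DKO 4 lay below 1 double heterozygote. The log2 fold change was 0.22 ± 0.12 for DKO against Irx3KO (SE; adjusted p = 0.69), 0.19 ± 0.12 for DKO against double heterozygotes (adjusted p = 0.63), 0.25 ± 0.12 for Irx4KO against double heterozygotes (adjusted p = 0.89) and -0.29 ± 0.12 for Irx3KO against Irx4KO (adjusted p = 0.48). For DKO against Irx4KO it was -0.06, with a 95% interval of -0.31 to 0.19. For Irx3KO against double heterozygotes it was -0.03, with an interval of -0.28 to 0.22. As a share of the summed TPM of the 4 ligands, Jag2 took 26.8 to 29.6% in DKO, 21.5 to 22.2% in Irx3KO, 24.2 to 29.4% in Irx4KO and 22.4 to 24.4% in double heterozygotes.

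A comparison added after these values were seen set the 6 Irx4-homozygous libraries of set 2 (DKO and Irx4KO) against the other 6 (Irx3KO and double heterozygotes). Jag2 ran from 27.6 to 33.5 CPM with a median of 32.1 in the Irx4-homozygous libraries and from 25.4 to 28.0 CPM with a median of 26.4 in the others, and 5 of the 6 lay above all the others. In 0 of the 10 genes did the 2 groups of 6 not overlap, against 1.88% of all genes. The log2 fold change was 0.24 ± 0.08 (SE; 95% interval 0.06 to 0.42) and did not pass (adjusted p = 0.27), whereas with only the 12 libraries of set 2 fitted the adjusted p was 0.033. None of the 10 genes passed in the edgeR fit, where 0.813% of all genes did, and 2 (Jag2 and Hes1) had an unadjusted p under 0.05, against 10.6% of all genes. The matching comparison for Irx3, of DKO and Irx3KO against Irx4KO and double heterozygotes, gave 0 of 10 by edgeR (0.0241% of all genes), with 0 at an unadjusted p under 0.05 (7.39% of all genes), and DESeq2 also called 0. Jag2 there had a log2 fold change of -0.05 (95% interval -0.22 to 0.13). Whether the 2 contrasts differ was not tested.

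Hes1 in set 2 had 25.6, 23.8 and 22.6 CPM in DKO, 22.0, 19.3 and 21.2 in Irx3KO, 22.8, 21.4 and 21.4 in Irx4KO, and 20.7, 17.9 and 23.5 in double heterozygotes. DKO lay above Irx3KO without overlap, by a log2 fold change of 0.20 ± 0.09 (SE; adjusted p = 0.56), and overlapped the other 2 groups. It was 0.22 ± 0.09 against double heterozygotes (adjusted p = 0.42) and 0.13 ± 0.09 against Irx4KO (adjusted p = 0.92). Hey2 was at its highest in double heterozygotes, which averaged 197 ± 22 CPM, against 172 ± 14 CPM in DKO, 171 ± 8 in Irx3KO and 169 ± 4 in Irx4KO (SD, n = 3 each). The log2 fold changes over double heterozygotes were -0.19 ± 0.08 for DKO (adjusted p = 0.41), -0.20 ± 0.08 for Irx3KO (adjusted p = 1) and -0.22 ± 0.08 for Irx4KO (adjusted p = 0.70). Double heterozygote 4, at 174 CPM, lay among the other genotypes, and the 3 contrasts share the double heterozygote libraries.

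Jag1 in set 2 averaged 40.7 ± 2.9 CPM in DKO, 45.4 ± 2.1 in Irx3KO, 49.6 ± 4.2 in Irx4KO and 40.3 ± 5.7 in double heterozygotes (SD, n = 3 each). DKO lay below Irx4KO without overlap, at a log2 fold change of -0.29 ± 0.14 (SE; adjusted p = 0.89), and Irx4KO lay 0.30 ± 0.14 above double heterozygotes (adjusted p = 0.89). Notch1 averaged 55.6 ± 8.7 CPM in DKO, 58.1 ± 15.4 in Irx3KO, 59.8 ± 10.5 in Irx4KO and 80.1 ± 26.9 in double heterozygotes (SD, n = 3 each), the last ranging from 53.1 to 107. In TPM the double heterozygotes were instead the lowest for Notch1, at 22.2 ± 6.6. DKO had 29.9 ± 4.4 TPM, Irx3KO 29.9 ± 4.8 and Irx4KO 33.7 ± 6.5 (SD, n = 3 each). The TPM order also holds short transcripts. Notch1-207, of 434 bases, took on average 0.29% of the Notch1 counts in double heterozygotes, 0.73% in DKO, 0.6% in Irx3KO and 0.71% in Irx4KO. Notch1-201, of 9488 bases, averaged 2571.9 estimated counts in double heterozygotes, 1985.1 in DKO, 2252.3 in Irx3KO and 2163.5 in Irx4KO. Notch2 stayed within 94.0 to 116 CPM over the 12 libraries. Heyl ranged from 18.4 to 37.3 CPM within DKO alone, and Hey1 from 15.6 to 26.9, with DKO 4 the lowest and DKO 3 the highest of the 3 DKO libraries for both, and for Dll4 too (18.7 to 30.8 CPM). Dll1 averaged 9.59 ± 2.22 CPM in DKO, 11.3 ± 1.4 in Irx3KO, 9.18 ± 0.71 in Irx4KO and 10.4 ± 0.68 in double heterozygotes (SD, n = 3 each). Genes with groups that did not overlap numbered 2 of 10 in DKO against Irx3KO (17.4% of all genes), 2 in DKO against Irx4KO (15.0%), 3 in Irx4KO against double heterozygotes (14.1%), 4 in Irx3KO against Irx4KO (22.7%) and 0 in the other 2 comparisons (16.0% for DKO and 11.6% for Irx3KO against double heterozygotes).

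The DKO genotype was present in both sets, which shows how far the Notch genes moved with the set at 1 genotype. Notch1 averaged 15.2 ± 7.7 CPM in DKO of set 1 and 55.6 ± 8.7 CPM in DKO of set 2, a log2 fold change of -1.86 ± 0.37 (SE; adjusted p = 0.0045). Notch2 averaged 59.1 ± 16.2 CPM in set 1 and 97.2 ± 4.4 CPM in set 2 (-0.72 ± 0.12, adjusted p = 0.0010), and Jag1 25.2 ± 6.3 CPM in set 1 and 40.7 ± 2.9 CPM in set 2 (-0.69 ± 0.14, adjusted p = 0.0036; SD, n = 3 each). These 3 of 10 were lower in set 1 than in set 2, where 18.8% of all genes passed in either direction, 9.04% higher and 9.74% lower. They have the 3 longest transcripts of the set, 9488 bases for Notch1, 10506 for Notch2 and 5612 for Jag1, against 1468 to 4537 bases for the other 7. With the length trend removed, the log2 fold changes were -1.59 (adjusted p = 0.017), -0.30 (0.049) and -0.54 (0.0093) for Notch1, Notch2 and Jag1. Jag2, with 4054 bases, stood at 29.1 ± 2.6 CPM in DKO of set 1 and 30.6 ± 2.8 CPM in DKO of set 2 (-0.07 ± 0.12, adjusted p = 0.72; SD, n = 3 each). For Jag2 in DKO against WT the length-corrected log2 fold change was 0.56 (adjusted p = 0.022). Notch2, Jag2, Hey1 and Hey2 had a single transcript in the files, and Notch1-201 held 91.8 to 98.0% of the Notch1 counts in set 1 and 97.1 to 99.2% in set 2.

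**Figure D4:**
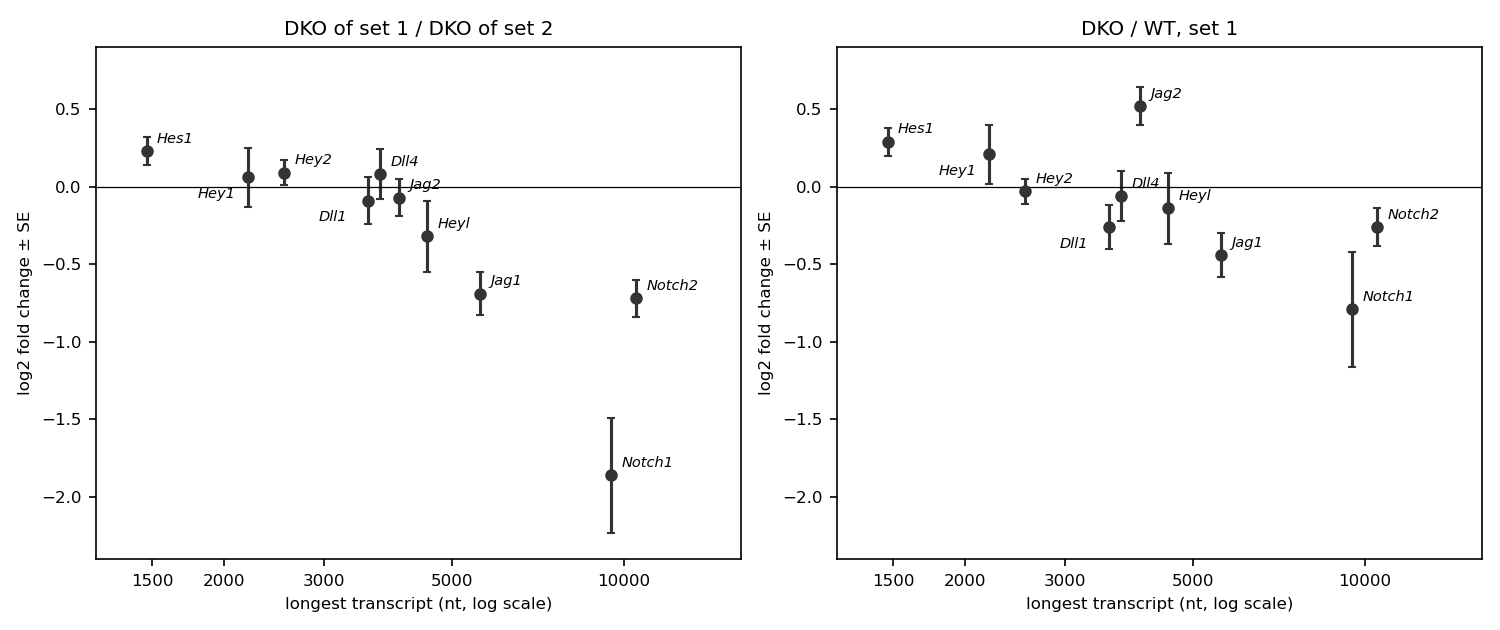
Log2 fold change (with its SE) of each Notch gene against the length of its longest transcript in bases on a log scale, for DKO of set 1 over DKO of set 2 (left) and DKO over WT in set 1 (right). On the left Notch1, Notch2 and Jag1, the longest, lie at -1.86, -0.72 and -0.69; on the right Jag2 lies at 0.52, away from genes of like length.

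The wider pathway was read from lists. In DKO against WT of set 1, 0 of 10 genes for receptor cleavage, 0 of 7 for ligand endocytosis, 0 of 5 for glycosylation of the receptors, 0 of 11 of the nuclear complex, 0 of 10 inhibitors and turnover genes and 0 of 3 other Hes genes passed edgeR's test in either direction. The share over all genes was 1.44%, so a count of 0 in lists of this size says little about the wider pathway. Of the 4 other receptors and ligands tested, 1 fell. This was Dlk1, a Delta-like protein that lacks the receptor-binding DSL domain of the true ligands, with 42.7 ± 5.5 CPM in DKO and 63.4 ± 12.9 CPM in WT (SD, n = 3 each) and a log2 fold change of -0.57 ± 0.14 (SE; adjusted p = 0.049). The call was kept only on leaving out double heterozygote 4, DKO 3, DKO 4, DKO 10 or WT 1, and was lost in the other 13 single omissions (adjusted p of 0.052 to 0.23), with a log2 fold change of -0.40 without WT 3. None of the 11 signals of trabecular growth passed. In the 6 comparisons of set 2, where 0.00602 to 0.379% of all genes passed, no gene of these pathway lists did.

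Bulk RNA cannot tell fewer cells of a type from less RNA per cell, so markers of the cell types that carry Notch genes were summed beside them. The 15 endothelial and endocardial markers summed to 1707 to 1841 CPM in DKO and 1695 to 1801 CPM in WT of set 1, with 0 of 15 passing and none at 0 in any library. The share of all genes passing in this comparison was 1.44%. The 8 arterial markers summed to 895 to 1044 CPM in DKO and 822 to 913 CPM in WT, with 0 of 8 passing. Of 7 venous and lymphatic markers, Lyve1 rose (log2 fold change 1.21 ± 0.20, adjusted p = 0.0074) and Pdpn fell (-0.52 ± 0.12, adjusted p = 0.029), and their sum was 377 to 398 CPM in DKO and 381 to 448 CPM in WT. The Pdpn call was lost without any 1 of DKO 7, DKO 10, WT 1, WT 2 and WT 3 (adjusted p of 0.051 to 0.12). Smooth muscle and pericyte markers summed to 888 to 1668 CPM in DKO and 1285 to 1480 CPM in WT (0 of 8 passing, with Myh11, smooth muscle myosin, listed at 0 in the 3 DKO libraries and in WT 2), epicardial markers to 280 to 320 CPM in DKO and 251 to 291 CPM in WT (0 of 9), cushion and fibroblast markers to 3059 to 3758 CPM in DKO and 2933 to 4062 CPM in WT (0 of 8), and erythroid markers to 2629 to 4504 CPM in DKO and 3464 to 6997 CPM in WT (0 of 8). Myh11 was also at 0 in set 2, in double heterozygotes 2, 3 and 4 and in Irx3KO 1, but not in DKO there. Of 10 macrophage and leukocyte markers, 1 fell, the lysozyme Lyz2 (-1.49 ± 0.30, adjusted p = 0.023), a call lost without DKO 7 (adjusted p = 0.094) or WT 1 (0.050), while the sum was 100 to 139 CPM in DKO and 122 to 216 CPM in WT.

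Of 6 atrial cardiomyocyte markers, 4 rose in DKO of set 1: Stard10 by a log2 fold change of 1.16 ± 0.18 (adjusted p = 0.0040), Myl7, the atrial light chain, by 0.94 ± 0.16 (0.0091), Tbx5, a T-box factor, by 0.43 ± 0.08 (0.012) and Myl4, another light chain, by 0.43 ± 0.08 (0.016). Over all genes, 0.644% rose. The atrial list summed to 2561 to 2814 CPM in DKO and 1562 to 2068 CPM in WT. Without WT 1 the calls of Myl7 (adjusted p = 0.051), Tbx5 (0.063) and Myl4 (0.054) were lost, and that of Myl4 also without WT 3 (0.073). In set 2 the list summed to 1870 to 2158 CPM in DKO, 1628 to 1643 in Irx3KO, 1708 to 1833 in Irx4KO and 1411 to 1635 in double heterozygotes, with no member passing in the 6 pairwise comparisons. The 8 ventricular cardiomyocyte markers summed to 30180 to 32090 CPM in DKO and 28780 to 30240 CPM in WT of set 1, with a median log2 fold change of 0.11. None rose by the test. Of the 8, 3 had DKO above WT without overlap (7.97% of all genes) and 1 below (7.04% of all genes). The 1 that fell was Pln (phospholamban, the inhibitor of the sarcoplasmic calcium pump), by a log2 fold change of -0.43 ± 0.07 (adjusted p = 0.0049). In the pairwise comparisons of set 2, of all the marker lists, Pln fell in DKO against Irx3KO (-0.40 ± 0.07, adjusted p = 0.016, lost without DKO 3, DKO 4, Irx3KO 2 or Irx3KO 4) and against double heterozygotes (-0.42 ± 0.07, adjusted p = 0.022, lost without DKO 3, DKO 4 or double heterozygote 2 or 3). Lyz2 fell in DKO against Irx3KO (-1.54 ± 0.30, adjusted p = 0.045), a call kept only without DKO 5, WT 2 or WT 3 and lost in the other 15 single omissions. In the Irx4-homozygous libraries against the others of set 2, the added comparison, 3 markers passed, as did 0.813% of all genes. Stard10 rose (0.67 ± 0.13, adjusted p = 0.020, lost without double heterozygote 2 or 3, Irx3KO 1 or 4, or Irx4KO 3), Pln fell (-0.30 ± 0.05, adjusted p = 0.0064) and Lyz2 fell (-1.06 ± 0.21, adjusted p = 0.033, lost in 11 of 18 single omissions, those of each library of set 2 other than double heterozygote 3). With the 6 libraries of set 1 fitted alone, none of the 9 list genes named above passed in DKO against WT (adjusted p of 0.11 to 0.37). The part of these marker genes in the level of Jag2 was not tested.

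The genes most like the 3 Notch genes with the smallest p (Jag2, Hes1 and Jag1) were sought by Pearson's r of log2 CPM over the 18 libraries after the mean of each set was removed. The 10907 genes with a mean of at least 5 CPM that were neither gene models nor Y-linked were compared. Closest to Jag2 were Lingo1 (r = 0.90), Ntsr1 (0.90), Tmco4 (0.88) and Irx4 itself (0.88), where the 99th percentile of all genes was 0.69. Within set 1 and set 2 alone, r was 0.94 and 0.83 for Lingo1, 0.92 and 0.90 for Ntsr1, 0.99 and 0.62 for Tmco4, and 0.91 and 0.78 for Irx4. Irx4 transcripts in set 2 averaged 230 ± 8 CPM in DKO, 145 ± 12 in Irx3KO, 225 ± 13 in Irx4KO and 185 ± 8 in double heterozygotes (SD, n = 3 each). Closest to Hes1 were Pheta2 (0.85), Phlda3 (0.85), Id1 (0.84), an inhibitor of basic helix-loop-helix factors, and Unc5b (0.82), a netrin receptor of arterial endothelium, where the 99th percentile was 0.68. Closest to Jag1 were Fbln5 (0.89), a matrix protein of elastic fibres, Antxr1 (0.88), Flna (0.88), the actin crosslinker filamin A, and Cflar (0.88), where it was 0.76. Among the 10 genes themselves the highest values were 0.77 for Notch2 with Jag1 and for Hey1 with Heyl and 0.72 for Notch1 with Notch2, while Jag1 with Jag2 gave -0.33. These r describe likeness over libraries that share genotypes, depth and the length trend, and no p is attached to them.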

How the data were processed

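PolyA RNA of E14.5 ventricles was sequenced from directional libraries of RNA with an integrity number above 8.5, per the labels' protocols. Per the file headers, the authors deposited a table per library with transcript length, estimated counts and TPM (already scaled for length and total), the TPM used here for levels, shares and an alternative. Quantification used kallisto 0.42.2 with the mm9 build, per the submitters' processing notes; the transcript release is not given in the sources used here. Of 88943 transcripts, 78030 (87.73%) were tied to genes in GENCODE M21; the others held 6.42 to 6.77% of counts.

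Estimated counts were summed per gene, rounded and tested with edgeR 4.0.16 (R 4.3.3): filterByExpr, TMM, robust quasi-likelihood F tests on 6 cells of genotype and set, and Benjamini-Hochberg adjustment over 16607 genes at 0.05. The fit pooled the spread of all 18 libraries. Counting error is small at this depth, and 3 libraries per cell limit the precision. Replicate numbers did not pair libraries: deviations of same-numbered libraries correlated at -0.17 to 0.07 over 15 pairs. No 2 replicates were alike within sampling noise. Alternatives used DESeq2 1.42.0, limma 3.58.1, other scalings, filters and terms. The fit was also run on counts simulated without the length trend or the set difference, so that run says nothing about either.

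The 10 genes, the lists and the library sets were chosen with earlier results of these data known. Of the other lists, each gene past the threshold was named, or the 5 smallest p if more; for the 3 members with the smallest p, the 4 most like genes were named.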

Additional observations from a re-analysis of the deposited data

How the results depend on the processing

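Direction was read only for a gene that passed in 1 of the 2 fits compared; of 2860 comparisons of a Notch gene between the reported fit and an alternative, none that passed changed sign, 2843 kept their side of the threshold, 7 gained a pass and 10 lost it, all 10 for Jag2 in DKO against WT. In that comparison the count of Notch genes passing was 1 as reported, 0 with only the libraries of set 1, 0 with an embryo sex covariate (from Y-linked genes), 2 with DESeq2, 0 with limma-voom and 0 to 2 with 1 library left out. Leaving out 1 library gave 3 to 4 Notch genes for DKO of set 1 against DKO of set 2 and 0 for every other comparison. For Irx4-homozygous against the other libraries of set 2 the count was 1 with only set 2 fitted.

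Counts of all genes passing moved more. With genotype as the only term DKO of both sets is joined, so counts for comparisons with DKO also hold the difference between the sets. For DKO against WT (239) they were 16 with only that set, 105 with genotype as the only term, 610 with DESeq2, 155 with limma-voom and 67 to 576 with 1 library left out. For DKO against Irx3KO (63) they were 179, 284, 202, 253 and 15 to 143 in the same order, and 36 with the sex covariate. For DKO against double heterozygotes (15) they were 173, 317, 183, 29 and 4 to 102. For Irx3KO against Irx4KO (48) they were 145, 23, 212, 738 and 12 to 119. For DKO against Irx4KO (4) they were 1 with counts rebuilt from TPM, 12 with genotype only, 26 with DESeq2, 17 with limma-voom and 1 to 6. For Irx4KO against double heterozygotes (2) they were 12, 1, 32 and 4 (only set 2, genotype only, DESeq2, limma-voom) and 0 to 6, and for Irx3KO against double heterozygotes (1) they were 2, 12 and 2 (only set 2, DESeq2, limma-voom) and 1 to 2. The cause of these shifts was not tested.

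With a replicate block in set 2, 38 genes passed for DKO against Irx3KO, 34 for DKO against double heterozygotes, 2 for Irx3KO against double heterozygotes and 14 for Irx3KO against Irx4KO, and 0 Notch genes passed in any. The numbers do not pair the libraries (4 of 12 correlated best with their own number), and the groups of set 1 share none.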
